A study of Mus musculus with 40 samples.

Results

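Microglia are the resident immune cells of the brain, and border macrophages are their relatives along vessels and in the meninges. A set of 35 genes that mark these cells was followed through a study of hypothalamic astrocytes. The set was given as a list of symbols, and all 35 were found among the 26792 symbols of the count table, each with at least 1 count in at least 1 library. The mice carried the Aldh1l1-eGFP-L10a transgene, in which the astrocyte gene Aldh1l1 drives ribosomal protein L10a fused to green fluorescent protein. Translating ribosome affinity purification recovers the tagged ribosomes with their bound messages (the pull-down), and what is not bound remains as the supernatant. Both fractions were sequenced from dissected hypothalami of 3 groups, after 4 weeks of diet: sham-operated mice on chow (n = 7 per fraction), sham-operated mice on a high-fat diet (HFD, n = 6) and orchiectomised mice on HFD (n = 7). Orchiectomy is removal of the testes. All groups carried the transgene, and the comparison of orchiectomy is one within HFD, with no matching chow group. Whether a sample was 1 mouse is not said in the labels, so p-values speak only to variation among these samples, which may be technical.

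Microglia sense their surroundings through a group of surface receptors. Among these are P2ry12 and P2ry13, which bind purine nucleotides, Cx3cr1, which binds the neuronal chemokine Cx3cl1, and Csf1r, whose ligands Csf1 and Il34 keep the cells alive. They also make C1q, the first component of the complement cascade, and the lipid-sensing receptor Trem2, which signals through the adaptor Tyrobp. Border macrophages share many of these genes and are told apart by Mrc1, Cd163, Pf4 and Lyve1. Astrocytes and microglia are separate cell types, so the transgene labels ribosomes of the former.

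Many macrophage genes carry sites for the transcription factor PU.1, the product of the member Spi1, near their start sites. A promoter of 300 bases, from 250 before to 50 after the RefSeq start site, was matched for 27 of the 35 members (RefSeq, GRCm38.p6). The PU.1-type motif GAGGAAGT, searched on both strands (reverse complement ACTTCCTC), was present in 7 of these 27 (25.9%) and in 3.69% of the promoters of 27025 genes. A gene with several start sites was counted where any of its promoters held the motif. The 7 were C1qc, Cd53, Ctss, Hpgds, Inpp5d, Pf4 and Slco2b1, of which Slco2b1 had 3 promoters, 1 with the motif, and the others 1 each. The shorter AGGAAGT, which lies within the first motif, was present in 48.1% of the members and in 10.7% of all genes. A match describes the letters in these windows and not a bound site. The windows below run from 120 bases before to 25 after the start, with the motif in capitals, and were chosen to show it on either strand in members of different roles: a lysosomal protease (Ctss, chr3:95526666-95526810, plus strand), a prostaglandin synthase (Hpgds, chr6:65144706-65144850, minus strand), a signalling phosphatase (Inpp5d, chr1:87620192-87620336, plus strand) and a chemokine (Pf4, chr5:90772315-90772459, plus strand).
Ctss: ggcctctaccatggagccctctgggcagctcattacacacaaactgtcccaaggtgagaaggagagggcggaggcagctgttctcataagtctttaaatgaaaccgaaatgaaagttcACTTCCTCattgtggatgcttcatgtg
Hpgds: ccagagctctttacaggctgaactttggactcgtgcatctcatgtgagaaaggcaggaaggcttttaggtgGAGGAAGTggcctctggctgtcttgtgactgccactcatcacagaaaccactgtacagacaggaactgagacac
Inpp5d: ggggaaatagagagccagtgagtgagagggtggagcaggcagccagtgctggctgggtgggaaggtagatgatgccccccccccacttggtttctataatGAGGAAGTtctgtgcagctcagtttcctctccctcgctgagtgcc
Pf4: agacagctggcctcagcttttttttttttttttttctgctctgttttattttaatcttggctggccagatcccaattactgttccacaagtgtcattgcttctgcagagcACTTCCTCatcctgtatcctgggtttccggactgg

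The fractions separated the major cell types. All 10 astrocyte markers were higher in the pull-down (median log2 fold change 4.57), all 10 neuron markers were lower (-3.69), and all 10 endothelial markers were higher (2.01). All 10 oligodendrocyte markers were lower (-3.63), as were all 5 red cell markers (-1.61), 7 of 9 mural and fibroblast markers were higher, and lymphocyte markers were too low to test. Of all 15629 genes tested between the fractions, 43.1% were higher in the pull-down and 43.7% lower. A pull-down library held 7714803 to 20792147 counts and a supernatant library 8739269 to 12931843. Mitochondrially encoded messages took 0.643% to 1.63% of a pull-down and 19.2% to 27.8% of a supernatant. Gm42418, a gene that overlaps a ribosomal RNA repeat, took over 10% of the counts in 4 pull-downs (chow 8, HFD 1, orchiectomised 11 and 22, from 13.3% to 18.2%), and they were left out in an alternative of each pull-down comparison. Levels are given as CPM, counts relative to the TMM-scaled library size. The libraries hold 1 tag near the 3′ end of each message, so levels of different genes were compared without division by length.

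Microglial genes made up a small share of every library. Summed over the 35 members, the level was 99.9 to 424 CPM in the pull-downs (median 155) and 499 to 645 CPM in the supernatants (median 564). In the supernatant Ctss, a lysosomal protease, was the highest at 97.1 ± 20.1 CPM (SD, n = 20), followed by Cx3cr1 at 76.9 ± 11.6 and Csf1r at 62.4 ± 12.7. The complement genes came next, with C1qc at 34.5 ± 4.9, C1qb at 28.5 ± 6.8 and C1qa at 28.2 ± 4.69 CPM. At the foot were the scavenger receptor gene Cd163 at 1.11 ± 0.454 CPM and Spi1 at 0.951 ± 0.228 CPM. Each member's range overlapped that of the next in this order. In the pull-down Ctss (32.3 ± 18.2 CPM) and the transcription factor gene Sall1 (31.6 ± 4.88 CPM) led. Counts behind the low members were few there: Tmem119 had 1 to 16 counts per pull-down against 84 to 176 per supernatant, and Hpgds had none in 1 pull-down.

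Most microglial messages were depleted from the astrocyte pull-down. By edgeR's quasi-likelihood test at a Benjamini-Hochberg adjusted p under 0.05 over 15629 genes, 28 of the 35 members were lower in the pull-down (43.7% of all genes tested were lower), 4 were higher (43.1% of all genes) and 3 did not pass. The median log2 fold change, pull-down over supernatant, was -1.87 for the members and -0.01 for all genes tested. Here and below, TMM scaling places the typical gene near 0, so the median over all genes is no independent reference. For 18 members (51.4%) the 20 pull-downs and 20 supernatants did not overlap, against 37.3% of all genes. Between treatment groups, fewer microglia and less RNA per microglial cell cannot be told apart in such fractions of whole tissue.

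**Figure D1:**
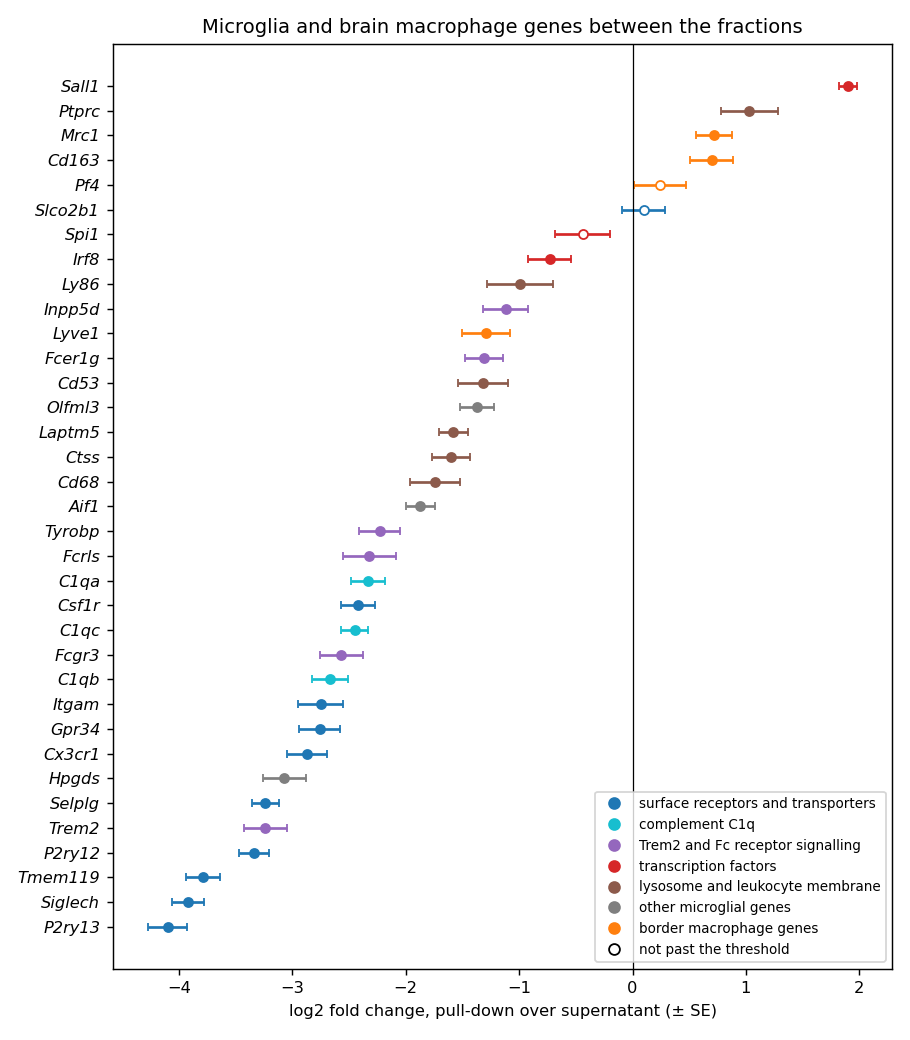
Log2 fold change, pull-down over supernatant (20 libraries each), with its SE for each of the 35 genes, coloured by role; open circles did not pass the threshold. Surface receptors lie furthest to the left, down to P2ry13 at -4.10, while Sall1, Ptprc, Mrc1 and Cd163 lie to the right of 0.

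The surface receptors had the lowest median of all roles, -3.06, with 9 of 10 lower. P2ry13 was at 0.121 to 2.27 CPM in the pull-downs (median 0.958) and at 11.3 to 23.6 CPM in the supernatants (median 15.6), without overlap. The log2 fold change was -4.10 ± 0.17 (SE, adjusted p = 1.37e-24 by edgeR), and the pull-down mean was 6.04% of the supernatant mean. Its neighbour on chromosome 3, P2ry12, had a log2 fold change of -3.34 ± 0.13. Siglech, a lectin of the sialic acid-binding family, had -3.92 ± 0.14, and Tmem119, a membrane protein used to mark microglia, had -3.79 ± 0.15. Cx3cr1 was at 4.36 to 32.6 CPM in the pull-downs (median 8.17) against 59 to 99.5 CPM in the supernatants (median 74.4). All 20 pull-downs lay below all 20 supernatants, and its log2 fold change was -2.87 ± 0.18. The remaining receptors that fell were Selplg (-3.24 ± 0.12), the ligand of selectins, Gpr34 (-2.76 ± 0.18), a lysophosphatidylserine receptor, Itgam (-2.75 ± 0.20), the integrin chain known as CD11b, and Csf1r (-2.42 ± 0.15). Exons of P2ry12 overlap Med12l and those of Csf1r overlap Hmgxb3, both on the opposite strand, and the strand setting of the counting is not given in the sources used here. Csf1r and Itgam were also the 2 members whose values differed between the 2 deposited tables.

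The 3 C1q chains, which assemble into 1 protein and lie side by side on chromosome 4, fell to a like degree. C1qb had a log2 fold change of -2.67 ± 0.16, C1qc of -2.45 ± 0.12 and C1qa of -2.33 ± 0.15, and none of the 3 overlapped between the fractions. C1qa was at 2.87 to 17.2 CPM in the pull-downs (median 4.90) and at 20.7 to 38.8 CPM in the supernatants (median 27.4). All 6 genes of Trem2 and Fc receptor signalling were lower, with a median of -2.28. Trem2 itself fell by 3.24 on the log2 scale (SE 0.19), from 6.80 ± 1.33 CPM in the supernatant to 0.751 ± 0.608 in the pull-down. Tyrobp, its adaptor, had -2.23 ± 0.18. The Fc receptor gene Fcgr3 had -2.57 ± 0.19, the Fc receptor-like gene Fcrls -2.32 ± 0.23 and Fcer1g, the shared signalling chain of Fc receptors, -1.31 ± 0.17. Inpp5d, the phosphatase SHIP1, had -1.12 ± 0.20.

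Of the lysosomal and leukocyte membrane genes 5 of 6 were lower, with a median of -1.45. Cd68, a lysosomal membrane glycoprotein, had -1.74 ± 0.22 and Ctss -1.60 ± 0.17. Laptm5 had -1.58 ± 0.13, the tetraspanin Cd53 -1.32 ± 0.22 and Ly86, a partner of a Toll-like receptor homologue, -0.99 ± 0.29. Ctss illustrates the overlap in this group: pull-downs ran from 16.8 to 90.4 CPM and supernatants from 66.7 to 134 CPM. Of the remaining microglial genes, Hpgds had -3.07 ± 0.19, Aif1, which encodes the protein IBA1, had -1.87 ± 0.13 and Olfml3, a secreted protein, -1.37 ± 0.15. No difference between these roles was tested.

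The 4 genes that were higher in the pull-down came from 3 roles. Sall1, a zinc finger transcription factor, was at 22.8 to 42.7 CPM in the pull-downs (median 32.2) and at 5.02 to 11.3 CPM in the supernatants (median 8.44). Every pull-down was above every supernatant, and the log2 fold change was 1.9 ± 0.08 (adjusted p = 7.41e-25 by edgeR). Ptprc, the leukocyte phosphatase CD45, was at 1.24 to 14 CPM against 0.805 to 5.23 CPM, with 8 pull-downs above all supernatants and a log2 fold change of 1.03 ± 0.25. The border macrophage genes Mrc1, the mannose receptor, and Cd163 had 0.72 ± 0.16 and 0.70 ± 0.19. Mrc1 had 0.38 ± 0.27 on chow, which did not pass, 1.02 ± 0.30 on HFD and 0.77 ± 0.27 after orchiectomy. Cd163 had 0.26 ± 0.32, 1.29 ± 0.36 and 0.56 ± 0.32 in the same order and passed only on HFD. On chow only Sall1 of the 4 genes passed. The other transcription factor genes did not follow Sall1: Irf8 was lower (-0.73 ± 0.19) and Spi1 did not pass (-0.44 ± 0.24, adjusted p = 0.0929). As a role the 4 border macrophage genes were split, with Mrc1 and Cd163 higher, the hyaluronan receptor gene Lyve1 lower (-1.29 ± 0.21) and the chemokine gene Pf4 not past the threshold (0.24 ± 0.23, adjusted p = 0.326).

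**Figure D2:**
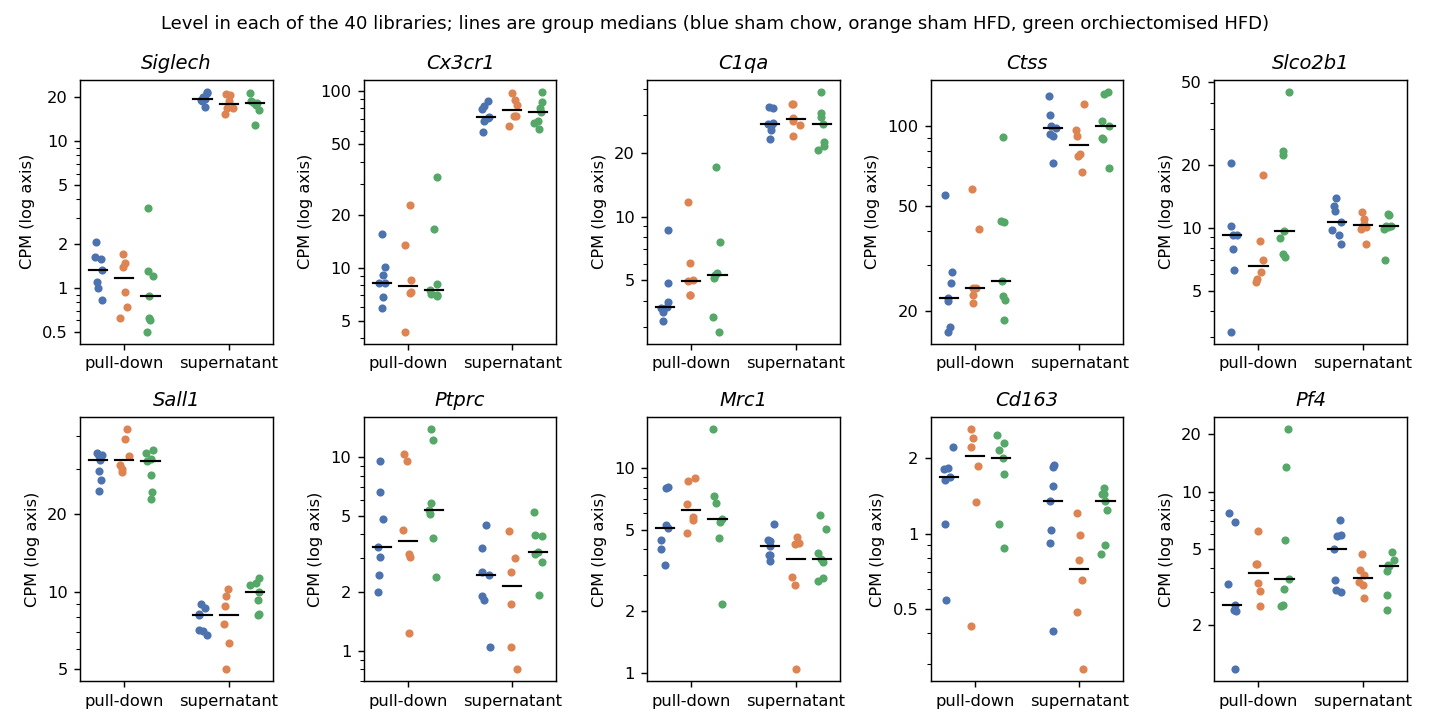
Level of 10 genes (CPM, log axis) in each pull-down and supernatant library, coloured by treatment group, with a line at each group's median. Siglech, Cx3cr1 and C1qa lie lower in every pull-down than in any supernatant, Sall1 lies higher in every pull-down, and Slco2b1 and Pf4 overlap.

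Slco2b1, an organic anion transporter, was the receptor and transporter gene that did not pass. It was at 3.18 to 45.1 CPM in the pull-downs (median 8.80) and at 7.04 to 13.9 CPM in the supernatants (median 10.2). The pull-downs spread around the supernatants, with 5 pull-downs above all supernatants. Its log2 fold change of 0.10 ± 0.19 (adjusted p = 0.642 by edgeR) became -0.35 (adjusted p = 0.0109) without the 4 pull-downs rich in Gm42418. Spi1 also passed without them, at -0.82 (adjusted p = 0.00117), so that 30 members were then lower and 4 higher, with a median of -2.14.

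Within a library, the ratio of 1 member to another does not depend on scaling. The 4 members that were higher in the pull-down, with Pf4, Lyve1 and Slco2b1, were chosen after their values were seen and set against Cx3cr1, which was itself lower there. Sall1 over Cx3cr1 had a mean log2 ratio of 1.73 ± 0.80 in the pull-downs and -3.18 ± 0.42 in the supernatants (SD, n = 20 each), a difference of 4.91 ± 0.20 (SE). For Mrc1 the difference was 3.68 ± 0.19, for Ptprc 3.90 ± 0.24, for Cd163 3.63 ± 0.31, for Pf4 3.03 ± 0.18 and for Slco2b1 2.94 ± 0.14. For Lyve1 it was 1.56 ± 0.29. Since these members and Cx3cr1 were chosen for how they differed between the fractions, the ratios are a description and carry no test. Without the 4 pull-downs rich in Gm42418 the differences ranged from 1.99 (Lyve1) to 5.18 (Sall1). Sall1, Mrc1, Ptprc, Pf4 and Slco2b1 did not overlap between the fractions on this ratio, while Cd163 and Lyve1 did. Cx3cr1 alone had a log2 fold change of -2.87 ± 0.18 without overlap, and its fall enters each of these ratios.

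Beyond the 35 members, other microglial genes were split between the fractions. Of 32 tested, 18 were lower and 5 higher, with a median of -0.68. Among all genes tested 43.7% were lower and 43.1% higher, the shares that stand beside every count in this paragraph. No list was tested against those shares. Rgs10, a regulator of G protein signalling, had -3.81 ± 0.09, while Cst3, a protease inhibitor, had 3.97 ± 0.14. Of 13 genes of activated microglia, 10 were higher and 2 lower, such as Cd63 at 2.92 ± 0.09. All 5 MHC class II genes were higher (median 2.52), among them H2-Aa at 2.66 ± 0.18, and all 4 neutrophil and monocyte markers tested were higher (median 3.55). Of 10 inflammatory genes 6 were higher and 2 lower, of 8 other complement genes 6 and 2, and of 6 other macrophage genes 2 and 3. Of 13 genes for signals to microglia, 9 were higher and 4 lower. Mertk, a phagocytic receptor, had 3.38 ± 0.09. How far other cells account for the levels of these genes in the pull-down was not tested.

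**Figure D3:**
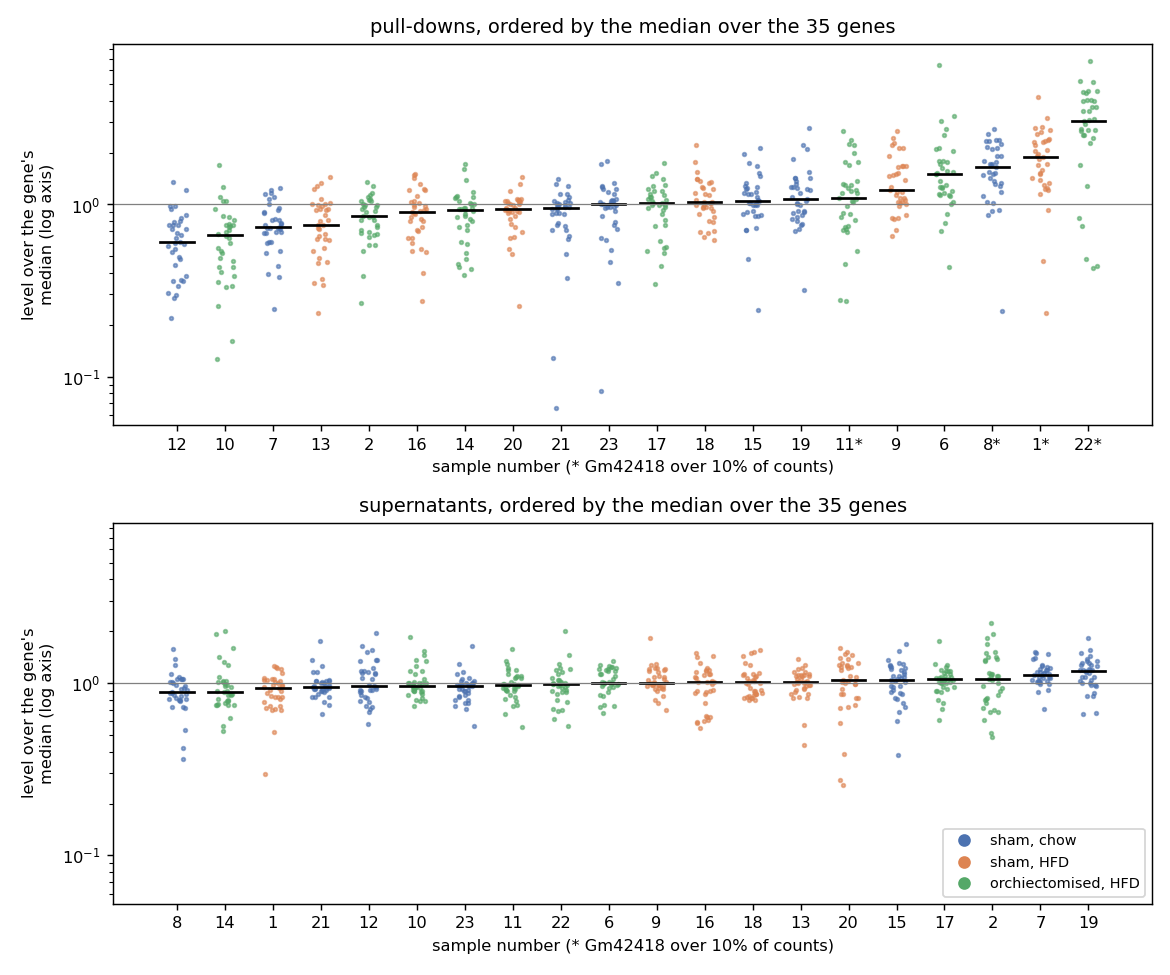
Each dot is 1 gene in 1 library, as its level over that gene's median in the same fraction (log axis; a single value of 0, for Hpgds, is left out), and lines are medians over the 35 genes. The pull-down medians run from 0.606 to 3.05 and those of the supernatants from 0.884 to 1.18.

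The set varied more between pull-downs than between supernatants. The coefficient of variation over 20 libraries had a median of 56.5% over the members in the pull-downs and 21.7% in the supernatants, and was larger in the pull-downs for 33 of the 35. Without the 4 pull-downs rich in Gm42418 the pull-down median was 38.9%, and again larger for 33. Dividing each member by its own median in the fraction, the median over members ranged 5.03-fold between pull-downs (2.48-fold without those 4) and 1.33-fold between supernatants. The pull-down of orchiectomised sample 22 stood apart at 3.05, and 25 of the 35 members were highest there. This library also had the lowest total count of all (7714803), Gm42418 at 15.1%, and the highest shares of mitochondrial messages (1.63%), neuron markers (0.0768%) and endothelial markers (0.181%) of the pull-downs. Next came HFD 1 at 1.88, chow 8 at 1.66 and orchiectomised 6 at 1.5. The lowest was chow 12 at 0.606. The part of these shares in the members' levels was not tested. Spread between pull-downs did not touch all members alike: Sall1 had a range of 22.8 to 42.7 CPM.

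Selected pairs of members were compared across libraries, the same pairs in each fraction and 20 tests in all, on log2(CPM + 0.5) with two-sided permutation tests and Benjamini-Hochberg adjustment. In the supernatants the complement chains C1qa and C1qb varied together. Pearson's r was 0.81 (permutation p = 1e-05, adjusted p = 6.7e-05, n = 20) and Spearman's rho 0.72 (p = 0.00048, adjusted 0.0024), and r was 0.68 without the 2 libraries farthest from the median of C1qa. C1qa and C1qc gave r = 0.52 (permutation p = 0.0186, adjusted p = 0.0414) and rho 0.51 (p = 0.0239, adjusted 0.0531), with r = 0.70 without the 2 farthest. Trem2 and its adaptor Tyrobp gave r = 0.43 (permutation p = 0.0593, adjusted p = 0.108) and rho 0.41 (p = 0.0766, adjusted 0.139). In the pull-downs that pair gave r = 0.83 (permutation p = 2e-05, adjusted p = 0.0001) and rho 0.73 (p = 0.00042, adjusted 0.0024). There r was 0.65 without the 2 farthest libraries and 0.54 without the pull-downs rich in Gm42418.

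The neighbouring genes P2ry12 and P2ry13 gave r = 0.35 in the supernatants (permutation p = 0.128, adjusted p = 0.183) and rho 0.21 (p = 0.378, adjusted 0.509). With 1 library left out, r ran from -0.01 (without orchiectomised 2) to 0.54 (without HFD 20), so it depended on single libraries. The microglial receptor gene Cx3cr1 and the border macrophage gene Mrc1 varied in opposite directions in the supernatants. Their r was -0.60 (permutation p = 0.0027, adjusted p = 0.00675) and rho -0.55 (p = 0.0135, adjusted 0.0361). It was -0.44 without the 2 farthest libraries, -0.52 without HFD 20, where Mrc1 was lowest at 1.05 CPM, and -0.59 after the group means were removed.

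In the pull-downs, where levels varied more between libraries, more pairs passed. Laptm5 and Ctss gave r = 0.94 (permutation p = 1e-05, adjusted p = 6.7e-05, n = 20) and rho 0.93 (p = 1e-05, adjusted 0.0002), with 0.90 without the 2 farthest libraries and 0.93 without the 4 rich in Gm42418. In the supernatants the same pair gave r = -0.03 (permutation p = 0.91, adjusted p = 0.91) and rho -0.01 (p = 0.972). C1qa and C1qc gave r = 0.91 (permutation p = 1e-05, adjusted p = 6.7e-05) and rho 0.75 (p = 0.0002, adjusted 0.002), and r was 0.80 without the 2 farthest and 0.68 without the 4 libraries. The border macrophage genes Mrc1 and Pf4 gave r = 0.69 (permutation p = 0.00122, adjusted p = 0.00349) and rho 0.72 (p = 0.00066, adjusted 0.00264), with 0.65 without the 2 farthest and 0.56 without the 4 libraries. In the supernatants this pair gave r = 0.22 (permutation p = 0.36, adjusted p = 0.48) and rho 0.09 (p = 0.709). Mrc1 with Cd163 and with Lyve1 gave r = 0.37 and 0.44 in the supernatants (permutation test, adjusted p = 0.176 and 0.0909). Mrc1 with Lyve1 gave r = 0.19 in the pull-downs (permutation p = 0.415, adjusted p = 0.518), and 0.67 without the 4 libraries.

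Cx3cr1 and Mrc1, opposite in the supernatants, gave r = 0.68 in the pull-downs (permutation p = 0.00101, adjusted p = 0.00337) and rho 0.54 (p = 0.0144, adjusted 0.0361). It was 0.39 without the 2 farthest libraries and 0.29 without the 4 rich in Gm42418, so the relation rested on a few libraries. P2ry12 and P2ry13 gave r = -0.12 (permutation p = 0.603, adjusted p = 0.709) and rho -0.13 (p = 0.595), and r was -0.28 without the 2 farthest libraries and -0.52 without the 4 rich in Gm42418. Mrc1 and Cd163 gave 0.04 (permutation p = 0.858, adjusted p = 0.903) and rho 0.21 (p = 0.382), and r was 0.71 without the 4 libraries. No difference of r between the fractions was tested.

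**Figure D4:**
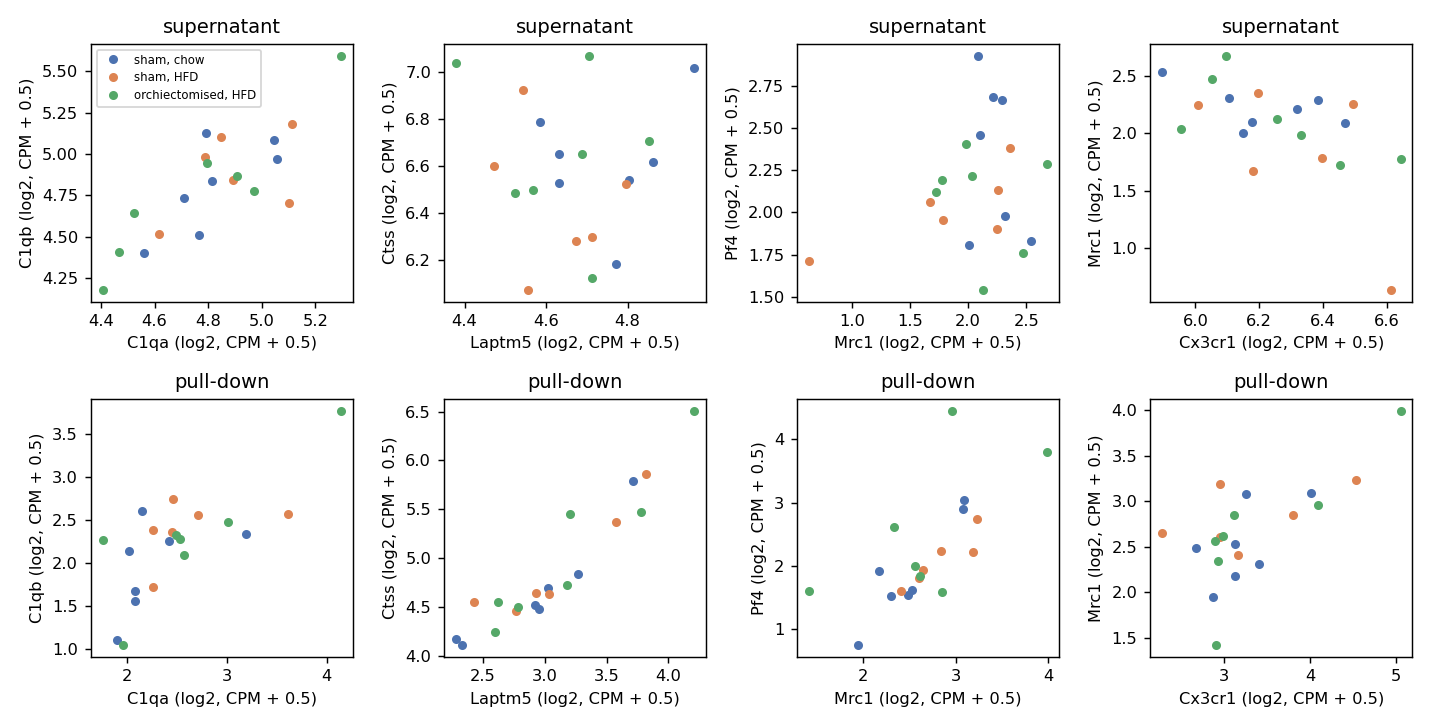
Each dot is 1 library, with log2(CPM + 0.5) of 1 gene against another, coloured by treatment group; supernatants are above and pull-downs below. C1qa and C1qb rise together in both fractions, while Laptm5 and Ctss do so in the pull-downs (r = 0.94) and not in the supernatants (r = -0.03).

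Diet was compared in sham mice, HFD over chow. In the pull-down none of the 33 members tested passed (0.0% of 14059 genes passed), and none did by DESeq2, limma voom or at an unadjusted p under 0.05 (1.71% of all genes). Trem2 and Spi1 were not tested there because of their low counts. The members' median log2 fold change was 0.19, with 26 of 33 above 0, and -0.01 over all genes tested. It was 0.15 without the pull-downs rich in Gm42418 and 0.00 without HFD 1 alone. The standard errors of the log2 fold changes had a median of 0.41 and ran from 0.12 to 0.60, so that what was detectable differed between members. C1qb was at 4.87 ± 1.17 CPM on HFD and 3.59 ± 1.37 on chow (log2 fold change 0.42 ± 0.34, adjusted p = 1.0 by edgeR), and Ly86 had 0.76 ± 0.60. Hpgds and P2ry13 were at the other end, at -0.57 ± 0.47 and -0.38 ± 0.47.

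In the supernatant, where the members varied less between libraries, diet moved no member past the threshold either (0 of 35, with 0.0% of 14628 genes, and 0 by DESeq2 and limma voom). Standard errors had a median of 0.17, and the median log2 fold change of the members was 0.00. At an unadjusted p under 0.05 there were 2 members (1.41% of all genes). Olfml3 was at 3.89 to 5.68 CPM in the 7 chow supernatants (median 4.84) and at 5.87 to 7.01 CPM in the 6 on HFD (median 6.70). The groups did not overlap, which held for 0.041% of all genes, but the difference of 0.40 ± 0.12 had an adjusted p = 0.904 in edgeR. Cd163 was at 0.736 ± 0.335 CPM on HFD and 1.28 ± 0.534 on chow (log2 fold change -0.81 ± 0.33, adjusted p = 0.904 in edgeR), with overlap. Itgam had -0.31 ± 0.15 and Trem2 0.21 ± 0.15. The range over the 35 genes was -0.81 to 0.40.

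**Figure D5:**
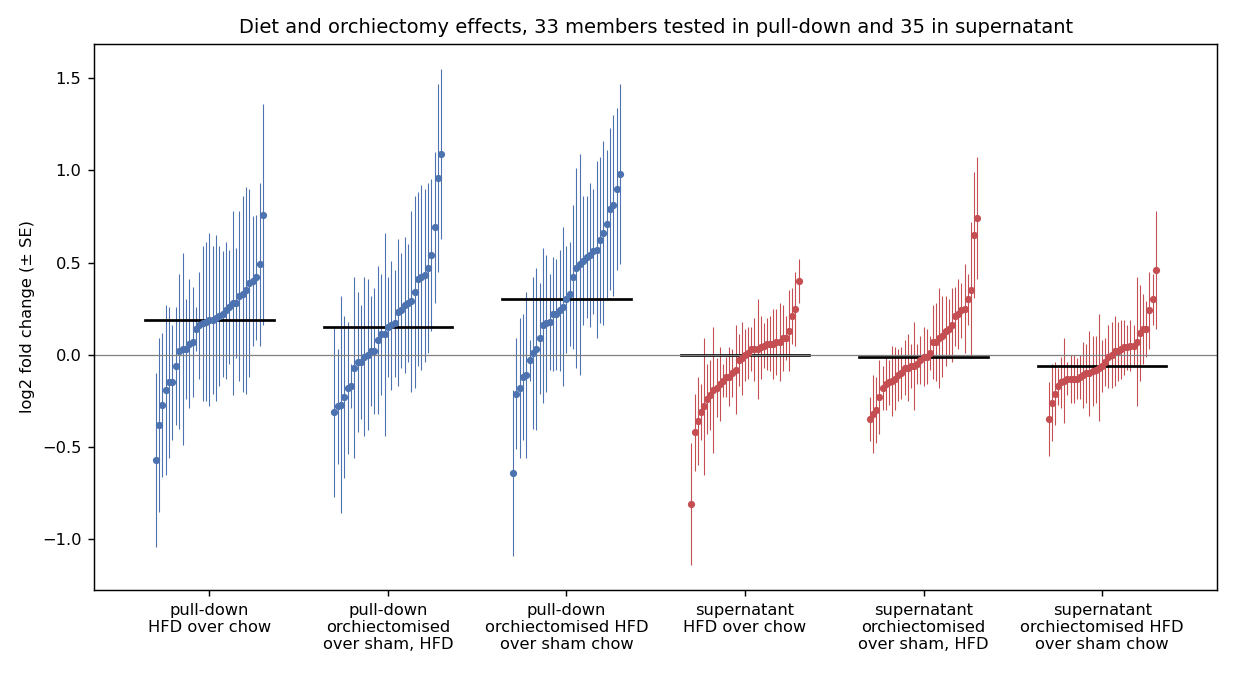
Log2 fold change with its SE of each tested gene in the 3 treatment comparisons, in pull-downs (33 genes) and supernatants (35 genes), sorted within each comparison, with a line at the median. Medians in the supernatant lie at 0.00, -0.01 and -0.06, and those in the pull-down at 0.19, 0.15 and 0.30; no gene passed the threshold in any of the 6.

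Orchiectomy was compared in mice on HFD, orchiectomised over sham. In the supernatant none of the 35 members passed (0.0% of all genes passed), nor by DESeq2 (0.0205% of all genes) or limma voom (0.0%), and the median log2 fold change was -0.01. The same HFD group entered both this and the diet comparison, so that the values of Olfml3 and Cd163 are given side by side: Olfml3 was at 5.17 ± 0.664 CPM after orchiectomy and 6.58 ± 0.42 in sham (-0.35 ± 0.12), and Cd163 at 1.25 ± 0.276 and 0.736 ± 0.335 (0.74 ± 0.33). Neither passed (adjusted p = 0.945 for both by edgeR). Sall1 had 0.30 ± 0.14, the third member under an unadjusted 0.05 (3.0% of all genes), and Fcer1g had -0.30 ± 0.18. Orchiectomised mice on HFD against sham mice on chow gave none of 35 past the threshold (0.0% of all genes by edgeR, 0.00684% by DESeq2 and 0.0% by limma voom) and a median of -0.06. In that comparison 1 member, Sall1, was under an unadjusted 0.05 (2.26% of all genes), at 9.74 ± 1.25 against 7.85 ± 0.865 CPM (0.30 ± 0.14, adjusted p = 1.0 by edgeR).

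In the pull-down orchiectomy also left all 33 tested members short of the threshold (0.0% of all genes passed by edgeR and by limma voom, and 0.0782% by DESeq2, none of them a member). The median log2 fold change was 0.15, with 22 above 0, but it was -0.10 without orchiectomised sample 22 and -0.04 without the 4 pull-downs rich in Gm42418, so that its sign rested on those libraries. Slco2b1 was the one member with an unadjusted p under 0.05 (6.53% of all genes). It was at 7.23 to 45.1 CPM in the 7 orchiectomised pull-downs (median 9.72) and at 5.50 to 17.9 CPM in the 6 sham pull-downs on HFD (median 6.57), with overlap. The log2 fold change was 1.09 ± 0.46 (adjusted p = 0.741 by edgeR), 0.79 without the 4 pull-downs rich in Gm42418, and 0.67 without orchiectomised sample 22, the highest of all at 45.1 CPM. Pf4 had 0.96 ± 0.51, at 7.42 ± 7.24 against 3.90 ± 1.30 CPM, and 0.40 without orchiectomised sample 6. All 10 endothelial markers were above 0 in the same comparison (median 0.86), none past the threshold, and their summed share was 0.0335% to 0.181% in the orchiectomised group and 0.0236% to 0.097% in sham mice on HFD. Their part in the members' values was not tested. Of the 11 members below 0, Sall1 (-0.17 ± 0.12) and Aif1 (-0.28 ± 0.31) had the smallest p, neither past the threshold.

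Orchiectomised mice on HFD against sham mice on chow gave a pull-down median of 0.30, with 27 of 33 above 0 (0.00 over all genes tested). It was 0.02 without orchiectomised sample 22 and 0.15 without the 4 pull-downs rich in Gm42418. All 10 endothelial markers (median 1.11, 8 at an unadjusted p under 0.05) and all 5 red cell markers (median 1.11) were above 0 in the same comparison, none past the threshold. The endothelial share was 0.0335% to 0.181% in the orchiectomised group and 0.0224% to 0.0791% in sham mice on chow, the red cell share 0.0228% to 0.653% and 0.0424% to 0.156%, and their part in the members' values was not tested. None of the 33 passed by edgeR (0.0142% of all genes), DESeq2 (0.0854%) or limma voom (0.00711%), and none was under an unadjusted 0.05 (11.1% of all genes). Pf4 had 0.98 ± 0.49, which was 0.43 without orchiectomised sample 6. Slco2b1 had 0.90 ± 0.44, which was 0.49 without orchiectomised sample 22 and 0.55 without the 4 pull-downs rich in Gm42418. Hpgds had -0.64 ± 0.45, at 0.575 ± 0.455 against 0.958 ± 0.383 CPM. Across all alternatives tried for these 6 comparisons no member passed, and the lowest adjusted p of any was 0.244, in the pull-down comparison of orchiectomy.

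Genes of activated microglia and of inflammation, which are outside the set, gave no call in these comparisons either. Of the 13 activation genes, 10 were higher in the pull-down than in the supernatant. Their median log2 fold change between the fractions was 1.15, against -1.87 for the members of the set. How far microglia account for the levels of these genes was not tested, so the medians below cannot show whether microglia were activated. On HFD over chow, the 13 activation genes tested in the pull-down had a median log2 fold change of -0.06 and the 12 tested in the supernatant one of 0.12. The inflammatory genes had medians of -0.16 (8 tested) and 0.01 (6 tested). After orchiectomy the medians were -0.03 and -0.05 for activation and 0.24 and 0.04 for inflammation, in pull-down and supernatant. MHC class II genes, which present antigen, had 0.46 (5 tested) and 0.35 (4 tested), and all of them were above 0 without passing.

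Whether a treatment effect differed between the fractions was tested in the fit of all 40 libraries. None of the 35 members passed by edgeR for diet (0.0% of all genes), orchiectomy (0.0064%) or both together (0.0128%). By DESeq2, where 0.0256%, 0.0384% and 0.0448% of all genes passed, and by limma voom (0.0%, 0.0% and 0.0064%), no member passed either. At an unadjusted p under 0.05 there was 1 member for diet (2.55% of all genes), 2 for orchiectomy (4.43%) and 2 for both together (6.66%). The largest of these were Cd163 for diet, 1.03 ± 0.48 (adjusted p = 0.97 by edgeR), Slco2b1 for orchiectomy, 1.10 ± 0.48 (adjusted p = 0.941 by edgeR), and Pf4 for both together, 1.32 ± 0.54 (adjusted p = 0.737 by edgeR). Sall1 had -0.49 ± 0.19 for orchiectomy, as its supernatant value was higher and its pull-down value lower after orchiectomy. Taken group by group, 28 members were lower in the pull-down on chow (38.7% of all genes), 26 on HFD (38.2%) and 26 after orchiectomy (39.2%). Higher were 1 on chow (37.3% of all genes), namely Sall1, 4 on HFD (37.6%) and 5 after orchiectomy (37.7%). P2ry13 had -3.93 ± 0.28 on chow, -4.41 ± 0.31 on HFD and -3.94 ± 0.28 after orchiectomy, and C1qa had -2.64 ± 0.27, -2.30 ± 0.28 and -2.05 ± 0.26. Slco2b1 was at -0.21 ± 0.33, -0.30 ± 0.36 and 0.80 ± 0.32 and Pf4 at -0.35 ± 0.39, 0.10 ± 0.42 and 0.97 ± 0.38 in the same order. Of these values for Slco2b1 and Pf4, those after orchiectomy passed the threshold (adjusted p = 0.024 and 0.0207 by edgeR), and the interaction did not. The high values lay in a few pull-downs, with Slco2b1 at 45.1 CPM in sample 22 and Pf4 at 21.3 CPM in sample 6. By median the orchiectomised pull-downs were not above the supernatants. Slco2b1 had medians of 9.72 and 10.2 CPM, and Pf4 of 3.51 and 4.07 CPM, in pull-down and supernatant.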

How the data were processed

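Per the labels' protocols, messages were captured with Dynabeads and libraries made with the QuantSeq 3′ FWD kit. Trim Galore 0.6.4, Salmon 1.9.0 and the build GRCm38 are named in the submitters' processing notes, and the strand setting was not given in the sources used here. Values deposited by the authors are estimated counts per gene symbol, with fractional values in 12.7% of non-zero entries, and a second table, named TPM, whose signal equals those counts times 1 factor per library for 25089 of 26783 symbols (within 0.01 counts). Estimated counts were rounded, and the second table served only as an alternative, chosen after seeing the data. For 33 of the 35 members both tables agree within that tolerance.

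Tests were quasi-likelihood F tests (edgeR 4.0.16, R 4.3.3; robust fit, TMM, filterByExpr with a minimum count of 10), with pull-downs and supernatants fitted apart for treatments and all 40 libraries fitted together with 6 group means for the fractions and interactions. P-values were adjusted over all genes tested, with the threshold at 0.05. The SE of an edgeR log2 fold change was derived from the test, as its absolute value over the square root of F. Alternatives were DESeq2 1.42.0, limma 3.58.1 voom, other scaling, filters and left-out libraries. The procedure was tested on simulated data. Members with the 2 smallest p in each direction were named in each treatment comparison, and all 35 between the fractions. Of the other lists, the 2 genes with the smallest p between the fractions were named from some. Members and lists were chosen with earlier results of these data known. Positions are from GENCODE M21. Reads are not counted by molecule, so the spread between samples sets the error.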

Additional observations from a re-analysis of the deposited data

Results flagged for a closer look

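In 39 of 210 groups of a member's values (18.6%) 1 sample lay far from the others of its group by Dixon's criterion at 95%. For independent groups of normal values the criterion is met in about 1 in 20. The 210 groups share the same libraries and are not independent, so the 2 shares cannot be set against each other as a test. Most of the 39 were in 3 pull-downs, which also held Gm42418 above 10%. The pull-down of orchiectomised sample 11 held it at 16.9% and stood apart for no member. In the pull-down of orchiectomised sample 22 14 members stood apart as the highest of their group. There Ctss was at 90.4 CPM, Slco2b1 at 45.1, Cx3cr1 at 32.6, C1qa at 17.2, C1qc at 15.9, Mrc1 at 15.4, Irf8 at 13.9, C1qb at 13.1 and Tyrobp at 13.0 CPM. In the same library Cd53 was at 9.39, Inpp5d at 6.01, Siglech at 3.51, Trem2 at 2.88 and Gpr34 at 2.25 CPM. The pull-down of chow sample 8 stood apart as the highest for Ctss at 54.7 CPM, Slco2b1 at 20.6, Cx3cr1 at 15.6, C1qc at 10.1, C1qa at 8.61, P2ry13 at 2.27 and Ly86 at 2.27 CPM. The pull-down of HFD sample 1 stood apart for Slco2b1 at 17.9 CPM, C1qa at 11.7, C1qc at 8.88, Irf8 at 7.17 and P2ry12 at 3.10 CPM. In single pull-downs, Lyve1 reached 3.17 CPM in chow 19 and Tmem119 was lowest in chow 15 at 0.182 CPM.

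In the supernatants the sample that stood apart most often was orchiectomised 2, with high values for C1qb at 47.8 CPM, P2ry12 at 27.1, P2ry13 at 23.6 and Fcgr3 at 16.4 CPM. Orchiectomised 22 stood apart at the low end for Slco2b1 at 7.04 CPM and Itgam at 6.27 CPM. HFD 20 stood apart at the high end for Tmem119 at 14.5 and Fcrls at 9.78 CPM, and orchiectomised 6 for Tmem119 at 13.3 CPM. Trem2 was highest in chow 7 at 9.60 CPM and Fcgr3 lowest in chow 12 at 4.24 CPM. What sets these libraries apart was not tested.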

How the results depend on the processing

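Between the fractions, 28 to 30 members were lower and 4 higher under all alternatives tried, and the median was -2.14 to -1.81. Slco2b1 turned from 0.10 to -0.13 with limma voom, -0.09 with the replicate block and -0.35 without the pull-downs rich in Gm42418, and Pf4 from 0.24 to -0.02 with limma voom. Spi1 passed with DESeq2 (-0.51), limma voom (-0.72), the replicate block (-0.58) and without those pull-downs (-0.82). The cause was not tested. With the sample number as a replicate block, 29 members were lower and 4 higher, with a median of -1.91. Deviations of the 2 fractions of 1 number correlated above 0.1 for 5 of 20 numbers, and 6 of 20 correlated best with their own. No chance level was computed for these counts, and they do not exclude that the numbers are pairs. The red cell share was the highest of its fraction in both libraries of orchiectomised sample 6. The supernatants with the highest astrocyte marker shares were that of sample 6 and those numbered as the pull-downs rich in Gm42418. Both observations were made after the data were seen, and pairing was not tested further. The main comparison did not use the numbers as pairs because the labels do not say that they are. The count of members past the threshold was 0 under every alternative for each treatment comparison. The pull-down medians ran from 0.00 to 0.30 (diet), -0.10 to 0.29 (orchiectomy) and 0.02 to 0.44 (both) when 1 library was left out. Pull-downs had both fewer counts of most members and more spread, and their parts in the standard errors were not separated.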
